A study of Homo sapiens with 6 samples.

Results

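The 10 genes described here are the long noncoding RNAs MALAT1, NEAT1, PVT1, CCAT1, H19, MIR17HG, GAS5, TUG1, DANCR and SNHG1. They were chosen by symbol as noncoding RNAs often studied in cancer, and they are 10 of the 56638 gene symbols in the count tables. Each of the 10 had enough counts to be tested, so none was set aside for low counts. The series holds 6 RNA sequencing libraries, all from cells of 1 colorectal cancer line. By their titles, 3 libraries came from cells given control siRNA, a nonspecific siRNA, and 3 from cells given siRNA against the long noncoding RNA GLCC1, named lncRNA-AF339830 in the labels. No other agent or allele was given for either group, and the time between transfection and harvest was not given in the sources used here. The study made these libraries to compare gene expression after GLCC1 knockdown with that of control cells.

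The labels name the cells as SW480, a line from a colon adenocarcinoma, whereas the paper's methods name DLD-1, another colon adenocarcinoma line, for this sequencing. The names of the libraries attach each group to the other siRNA, since the control siRNA libraries carry AF123 and the GLCC1 siRNA libraries carry NC. The groups used here are those of the titles, and with the library names every direction below would turn. The titles number the libraries of each group after the word siRNA, and the paper numbers its different GLCC1 siRNAs in the same way. Whether a number marks a replicate or a siRNA sequence was not given, and libraries are called replicates here by that number. If it marks a sequence, spread between replicates and differences between siRNAs cannot be told apart. No row of the tables was named GLCC1 or AF339830 (0 rows), so the targeted RNA was not analysed here and the knockdown could not be checked from these counts. For the study's experiments in general, its reporting summary gives biological replicates that were collected independently, whereas neither the labels nor the sequencing methods say whether these libraries came from separate cultures. If they did not, the p-values measure only a spread between libraries that may be technical.

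A long noncoding RNA is a transcript without a long open reading frame, which may act as RNA in the nucleus or cytoplasm, or may mainly carry smaller RNAs that are cut out of it. MALAT1 and NEAT1 are abundant nuclear RNAs, and NEAT1 is the scaffold of nuclear bodies named paraspeckles. H19 is transcribed from the maternal copy of an imprinted locus that it shares with IGF2, a growth factor gene, and it is the precursor of miR-675. MIR17HG is the precursor of the miR-17-92 cluster of microRNAs. GAS5 and SNHG1 carry small nucleolar RNAs (snoRNAs) in their introns, and DANCR, also known as a differentiation antagonist, holds a snoRNA gene too. The spliced RNAs of GAS5 and SNHG1 are known targets of nonsense-mediated decay, the pathway that removes RNAs with an early stop codon. PVT1 and CCAT1 lie near the MYC oncogene, and TUG1 is a broadly expressed RNA first described in the developing retina.

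The microRNAs cut out of the 2 hosts with the largest differences are shown, because they are the known products of those hosts. They are mature human sequences of RefSeq on GRCh38, written 5′ to 3′, with the seed (bases 2 to 8, which pair with target messenger RNAs) in capitals. The first 6 come from MIR17HG and the last 2 from H19. Among the MIR17HG products, miR-17-5p and miR-20a-5p share a seed, miR-19a-3p and miR-19b-3p share another, and miR-18a-5p and miR-92a-3p each have their own. Levels of the mature microRNAs were not analysed here.
miR-17-5p: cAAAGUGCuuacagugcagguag
miR-20a-5p: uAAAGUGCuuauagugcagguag
miR-18a-5p: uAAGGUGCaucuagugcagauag
miR-19a-3p: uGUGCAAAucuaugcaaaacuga
miR-19b-3p: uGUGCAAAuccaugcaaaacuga
miR-92a-3p: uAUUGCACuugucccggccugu
miR-675-5p: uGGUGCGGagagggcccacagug
miR-675-3p: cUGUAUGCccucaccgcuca

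Library depth, as read pairs assigned to genes, ran from 11948790 to 19042516, and the smallest was GLCC1 siRNA replicate 2. Read pairs on no annotated gene made up 11.2% to 11.5% in the control libraries and 12.5% to 14.2% in the GLCC1 siRNA libraries, with the highest share again in replicate 2. The total for these shares was the pairs on 1 gene, on no gene or on several genes, and no other pairs. Epithelial markers of the colon were expressed, with a summed level of 5683 to 6203 CPM (read pairs per 1000000 on genes, with library sizes scaled by the TMM method) in control libraries and 2416 to 2793 CPM in GLCC1 siRNA libraries. KRT8, a keratin, had the highest level of them in both groups (means of 3584 and 1177 CPM), and the late differentiation marker KRT20 was near 0. Of the 10 colon markers, 1 rose and 6 fell in the test described below. These calls were 70% of the list, beside 31.6% of all tested genes. Of 9 markers of blood, endothelial and stromal cells, 4 were at 0 in every library. Their summed level was 12.4 to 15.8 CPM in control and 6.999 to 9.45 CPM in GLCC1 siRNA libraries, nearly all of it COL1A1.

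The main comparison asked whether the 10 RNAs differed between the libraries labelled GLCC1 siRNA and those labelled control siRNA. H19, GAS5, SNHG1 and DANCR were lower with GLCC1 siRNA, and MIR17HG and TUG1 were higher. MALAT1, NEAT1, PVT1 and CCAT1 did not pass the test at an adjusted p under 0.05 (edgeR's quasi-likelihood test with Benjamini-Hochberg adjustment over 23074 genes). Thus 6 of the 10 were called, 2 higher and 4 lower, whereas 31.6% of all tested genes were called, 14.9% higher and 16.7% lower. Among the 14875 tested genes whose mean reached 1 CPM, as all 10 do, 45.1% were called, 20.3% higher and 24.8% lower. The median log2 fold change was -0.02 for the 10, 0.03 for all tested genes and -0.03 for those at 1 CPM or more. Scaled by library totals alone, 4735 genes were called higher and 2797 lower, against 3429 and 3864 with TMM scaling, and the median of all tested genes was 0.15. The balance of calls thus moved with the scaling, and fold changes below are on TMM-scaled counts unless stated.

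For 8 of the 10, the 3 libraries of one group lay wholly above the 3 of the other, 4 higher and 4 lower with GLCC1 siRNA. This was so for 46.3% of all tested genes (22.3% higher, 24% lower). An exact permutation test of 3 libraries against 3 cannot give a two-sided p below 0.1, so each adjusted p below is from the model fitted across all genes. In bulk RNA, fewer cells with an RNA and less of it per cell cannot be told apart.

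**Figure D1:**
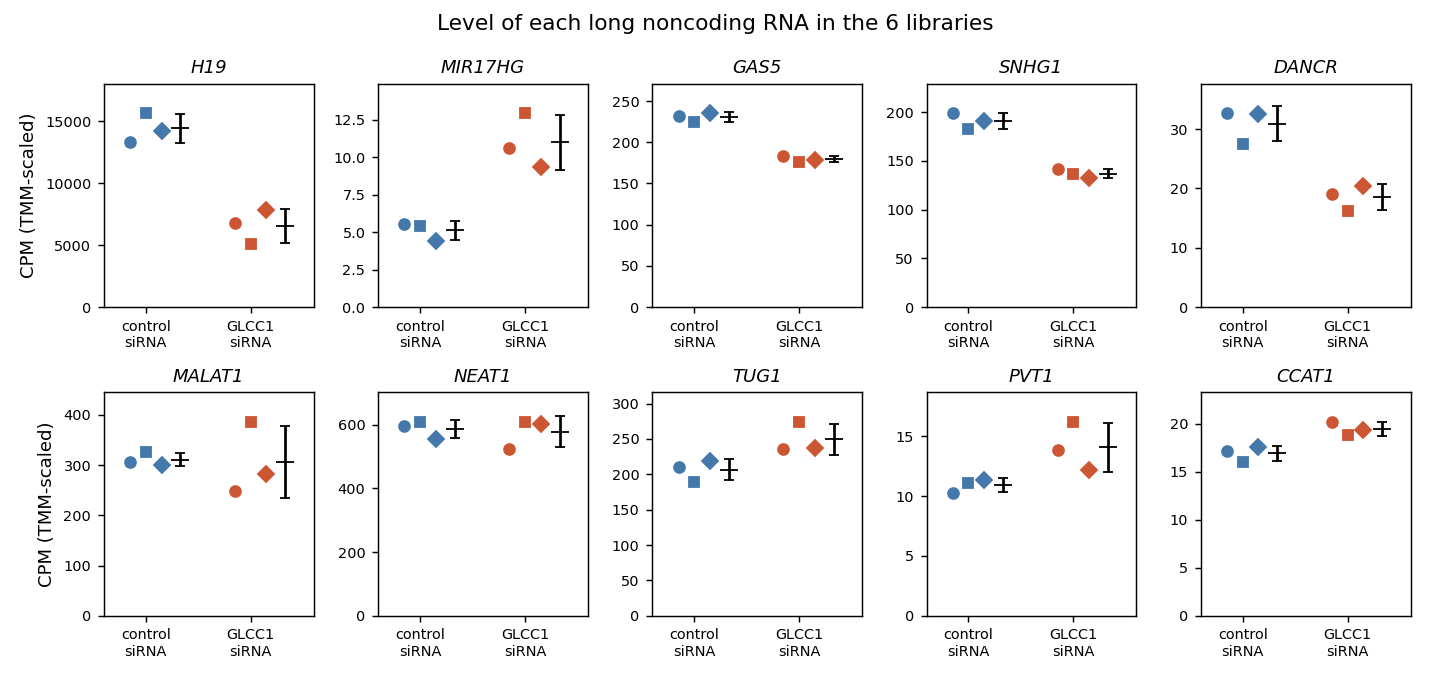
Level of each of the 10 RNAs in every library, in TMM-scaled CPM on a linear axis that starts at 0 in each panel; circles, squares and diamonds are replicates 1, 2 and 3, and the black bar is the mean ± SD of the 3 libraries. The groups do not overlap for 8 RNAs and do overlap for MALAT1 and NEAT1, where GLCC1 siRNA replicate 2 is the highest of its group.

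H19, the imprinted RNA at chr11:2016396-2025782 on the minus strand (hg19, 5 exons in its canonical transcript), had the most CPM of the 10, and also the most per kilobase. It measured 13360.3, 15706 and 14269 CPM in the control libraries and 6792, 5074 and 7815 CPM in the GLCC1 siRNA libraries. The groups did not overlap, and the highest GLCC1 siRNA library was far below the lowest control. The means were 14445 ± 1183 (SD, n = 3) and 6560.2 ± 1385 CPM, 2.2-fold lower with GLCC1 siRNA, with a log2 fold change of -1.14 (SE 0.126, 95% interval -1.41 to -0.87, adjusted p = 1.6e-05). Under every alternative run the log2 fold change of H19 was between -1.28 and -0.98 and stayed past the threshold.

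By read pairs, H19 held place 2 among all symbols in each control library, behind MT-CO1, the mitochondrial gene of cytochrome oxidase subunit 1. With GLCC1 siRNA it held place 3, 4 and 3. Its mean fell by 7885 CPM, more than that of any other symbol. KRT8 came next and fell by 2407 CPM, and LDHA, which makes lactate dehydrogenase A, fell by 2093 CPM. H19 supplied 89.2% to 90.8% of the summed CPM of the 10 RNAs in control libraries and 75.5% to 83.9% in GLCC1 siRNA libraries. The keratin genes KRT8, KRT18 and KRT19, markers of simple epithelium, fell alongside it with log2 fold changes of -1.61, -1.82 and -1.34. They were the largest falls among the 10 colon markers, of which 6 fell, 1 rose and 3 did not pass the test. Thus 70% of the markers were called. Of all tested genes at 1 CPM or more, 45.1% were called (20.3% higher, 24.8% lower). The marker that rose was CDH17, an intestinal cadherin, by 0.45 on the log2 scale. The part of the keratins in the H19 result was not tested.

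MIR17HG, the microRNA precursor at chr13:91999940-92049846 on the plus strand, had the fewest CPM of the 10 and showed their largest rise. Control libraries held 81, 98 and 73 read pairs, or 5.55, 5.40 and 4.40 CPM. GLCC1 siRNA libraries held 204, 163 and 167 read pairs, or 10.6, 13.0 and 9.34 CPM. No library of one group reached the other. The mean rose from 5.12 ± 0.629 to 10.98 ± 1.84 CPM (n = 3 each), 2.13-fold, with a log2 fold change of 1.09 (SE 0.16, 95% interval 0.75 to 1.44, adjusted p = 1.6e-04). Across the alternatives its log2 fold change ranged from 0.97 to 1.21, each past the threshold.

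Of 8 messenger RNAs known as targets of the miR-17-92 cluster, 3 rose, 2 fell and 3 did not pass the test. Their median log2 fold change was 0.14, beside 0.03 for all tested genes and -0.03 for those at 1 CPM or more. The 5 calls were 62.5% of this short list, beside 45.1% of all tested genes at 1 CPM or more. E2F1, a cell cycle transcription factor that is also known to activate the MIR17HG promoter, rose from 23.5 ± 1.94 to 54.7 ± 6.67 CPM (log2 fold change 1.22, adjusted p = 3.3e-06). THBS1, an inhibitor of angiogenesis, rose by 0.33 on the log2 scale. HIF1A, the hypoxia factor, rose by 0.29, a call that was lost in 4 alternatives with an adjusted p of up to 0.13. TGFBR2, a TGF-beta receptor, fell by 0.68 and CDKN1A, the cell cycle inhibitor p21, fell by 0.55.

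GAS5, SNHG1 and DANCR, which hold snoRNA genes, each fell. GAS5 (chr1:173827697-173838020, minus strand, 12 exons) measured 232, 224 and 236 CPM in control libraries and 183, 176 and 178 CPM with GLCC1 siRNA. Its groups were narrow and did not overlap. The mean fell from 230.8 ± 5.86 to 179 ± 3.76 CPM, a log2 fold change of -0.36 (SE 0.075, 95% interval -0.53 to -0.20, adjusted p = 0.0021).

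SNHG1 (chr11:62619450-62623425, minus strand, 11 exons) measured 199, 183 and 191 CPM in control libraries and 142, 136 and 133 CPM with GLCC1 siRNA. All control values lay above all GLCC1 siRNA values. Its log2 fold change was -0.48 (SE 0.079, 95% interval -0.65 to -0.31, adjusted p = 3.9e-04).

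DANCR (chr4:53578492-53589790, plus strand) measured 32.8, 27.6 and 32.5 CPM in control libraries and 19.1, 16.1 and 20.5 CPM with GLCC1 siRNA. The lowest control library, replicate 2, was still above the highest GLCC1 siRNA library. Its log2 fold change was -0.73 (SE 0.117, 95% interval -0.98 to -0.48, adjusted p = 3.4e-04). All 3 RNAs fell past the threshold under every alternative run, with the smallest change, by 0.24 for GAS5, under library totals alone. On the other strand, GAS5 overlaps the start of ZBTB37, and DANCR overlaps ERVMER34-1. The strand setting of the counting was not given, so reads from such overlaps could not be assigned with certainty.

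Of the other noncoding hosts of snoRNAs, 19 were listed, 16 were in the tables and 15 were tested. Of these 15, 8 fell, 0 rose and 7 did not pass the test, and 14 had a log2 fold change below 0. The median was -0.33, beside 0.03 for all tested genes and -0.03 for those at 1 CPM or more. The 8 calls were 53.3% of the 15 hosts. Of all tested genes at 1 CPM or more, 45.1% were called and 24.8% were called lower. At an unadjusted p under 0.05, 0 of the 15 hosts were higher and 9 lower, and DESeq2 also called 0 higher and 8 lower. The count of 8 was 4 when control replicate 3 was left out, and under library totals alone 4 fell and 1 rose. SNHG6 fell from 35.9 ± 1.12 to 17.5 ± 2.46 CPM (log2 fold change -1.03, adjusted p = 1.5e-05). SNHG7 and SNHG15 fell by 0.69 and 0.59 on the log2 scale.

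Many snoRNA hosts are known to start with a C followed by pyrimidines, the sequence that also begins messenger RNAs of ribosomal proteins. A C followed by at least 4 pyrimidines (searched on the transcribed strand at the annotated first base) opened the canonical transcript of 1 of the 9 annotated RNAs of the group (11.1%), 2 of the 19 other hosts (10.5%) and 2.97% of 55064 annotated genes. The starts are those of GENCODE 44 on hg19 and were not measured here. The starts of SNHG1, DANCR, SNHG6, SNHG7 and SNHG15, which also fell, did not match. The 2 other hosts that matched were ZFAS1 and SNHG12, and they did not go the same way. ZFAS1 fell (log2 fold change -0.33, adjusted p = 0.0095 by edgeR). SNHG12 had a log2 fold change of 0.24 and did not pass the test (adjusted p = 0.15). GAS5 and ZFAS1 are shown, since they match and are well-known members of this class. They are written from the first base with the 5 bases that were searched in capitals.
GAS5: CTTTTcgaggtaggagtcga
ZFAS1: CTTTCgcgtctgcggtgccc

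The small RNA genes inside the 10 RNAs were almost unread in these libraries. Of 32 listed, 18 were in the tables, 12 were at 0 in every library and 2 were tested. SNORD78, a snoRNA in an intron of GAS5, held 26, 30 and 26 read pairs in control libraries and 18, 10 and 15 with GLCC1 siRNA. It fell by 0.94 on the log2 scale (adjusted p = 0.017). DESeq2 did not call it (adjusted p = 0.074), nor did edgeR without control replicate 1, control replicate 2 or GLCC1 siRNA replicate 3 (adjusted p of 0.051 to 0.06).

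Of 10 factors of nonsense-mediated decay, 2 rose and 1 fell, with a median log2 fold change of -0.13. These calls made up 30% of the list, beside 45.1% of all tested genes at 1 CPM or more. UPF1, the central helicase of the pathway, fell from 162 ± 3.29 to 96.5 ± 9.94 CPM (log2 fold change -0.74, adjusted p = 3.6e-05). UPF3A and UPF2, its partners, rose by 0.36 and 0.38 on the log2 scale. The UPF2 call was lost without control replicate 2 (adjusted p = 0.096) or control replicate 3 (adjusted p = 0.094), and 3 factors fell without GLCC1 siRNA replicate 2.

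**Figure D2:**
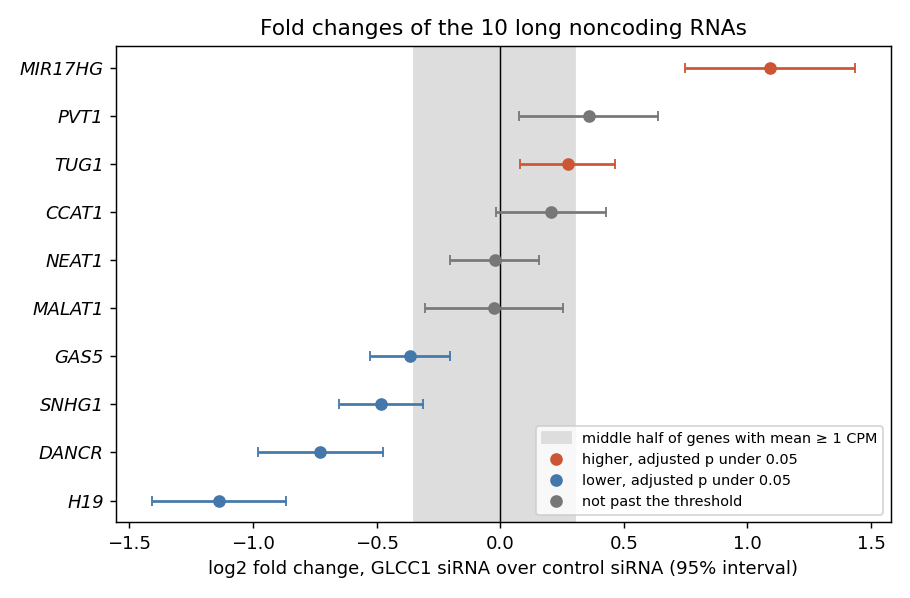
Log2 fold change of each of the 10 RNAs, GLCC1 siRNA over control siRNA, with its 95% interval; orange and blue mark genes past an adjusted p of 0.05, and the grey band spans the quartiles of the 14875 genes at 1 CPM or more (-0.35 to 0.30). H19 at -1.14 and MIR17HG at 1.09 lie farthest from 0, and the intervals of MALAT1, NEAT1 and CCAT1 include 0.

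Of the abundant nuclear RNAs, only TUG1 passed the test, and narrowly. TUG1 (chr22:31365231-31375381, plus strand, listed as protein_coding in GENCODE 44) measured 211, 190 and 219 CPM in control libraries and 236, 275 and 238 CPM with GLCC1 siRNA. The groups lay apart, with replicate 2 the highest GLCC1 siRNA library. Its log2 fold change was 0.27 (SE 0.090, 95% interval 0.08 to 0.47, adjusted p = 0.033). Leaving out control replicate 1, 2 or 3 gave an adjusted p of 0.089, 0.18 or 0.063.

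MALAT1 (chr11:65265111-65275544, plus strand, 1 exon) measured 306, 325 and 301 CPM in control libraries and 248, 387 and 283 CPM with GLCC1 siRNA. GLCC1 siRNA replicate 2 was above all controls, whereas the other two lay below them. The log2 fold change was -0.02 with a 95% interval of -0.30 to 0.25 (adjusted p = 0.90). Without replicate 2 of the GLCC1 siRNA group it was -0.22 with an adjusted p of 8.5e-04, so that 1 library decided the call. It was 0.10 under library totals alone.

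NEAT1 (chr11:65190245-65213011, plus strand, 1 exon) measured 596, 610.0 and 555 CPM in control libraries and 523, 610.0 and 602 CPM with GLCC1 siRNA. The groups overlapped. Its log2 fold change was -0.02 with a 95% interval of -0.20 to 0.16 (adjusted p = 0.86), and no alternative called it.

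MALAT1 and the long form of NEAT1 are known to end without a poly(A) tail. Of 7 RNAs that lack a poly(A) tail, 6 were tested and 1 was called, RN7SK, an RNA that restrains transcription elongation. It held 6, 14 and 7 read pairs in control and 20, 19 and 17 in GLCC1 siRNA libraries (adjusted p = 0.046). This call was lost with DESeq2 (adjusted p = 0.10) and without any 1 library other than control replicate 2 (adjusted p of 0.051 to 0.16). Their summed level was 16.4 to 28.2 CPM in control and 16.6 to 23.3 CPM in GLCC1 siRNA libraries, so these groups overlapped. The part of RNA selection in the levels of MALAT1 and NEAT1 was not tested. The library with the most read pairs outside genes, GLCC1 siRNA replicate 2, had the highest MALAT1, TUG1, MIR17HG and PVT1 of all 6 libraries. It also had the lowest H19, GAS5 and DANCR. The part of that share in the levels of these RNAs was not tested either. MALAT1 also overlaps its antisense RNA TALAM1.

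**Figure D3:**
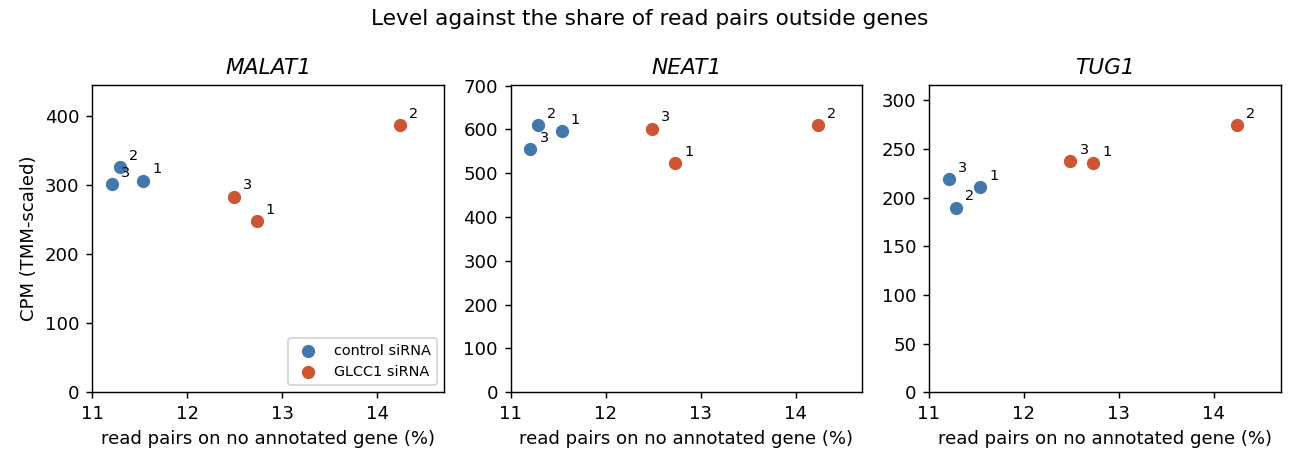
Level of MALAT1, NEAT1 and TUG1 (TMM-scaled CPM) against the share of read pairs on no annotated gene, in percent, for each library; the number beside a point is its replicate. GLCC1 siRNA replicate 2 stands alone at 14.2% and has the highest MALAT1 (387 CPM) and TUG1 (275 CPM), whereas its NEAT1 lies within the control range.

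Of 14 genes for paraspeckle proteins, which gather on NEAT1, 4 rose, 3 fell and 7 did not pass the test, with a median log2 fold change of 0.10. Hence 50% were called, beside 45.1% of all tested genes at 1 CPM or more. TAF15 rose from 186 ± 8.23 to 313 ± 10.8 CPM (log2 fold change 0.76, adjusted p = 7.8e-06). HNRNPH3 and EWSR1, also RNA-binding proteins, rose by 0.68 and 0.39 on the log2 scale. NUDT21, a subunit of the cleavage factor that sets the choice of poly(A) site, fell from 312 ± 15.5 to 181 ± 31.9 CPM (log2 fold change -0.79, adjusted p = 1.0e-04). DAZAP1 and TARDBP fell by 0.42 and 0.36. The core proteins SFPQ, NONO and PSPC1 did not pass the test, with log2 fold changes of 0.07, 0.14 and 0.10.

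PVT1 and CCAT1, from the MYC region, did not pass the test although their groups lay apart. PVT1 (chr8:128806772-129199347, plus strand, 11 exons) measured 10.3, 11.1 and 11.4 CPM in control libraries and 13.8, 16.2 and 12.2 CPM with GLCC1 siRNA. Each GLCC1 siRNA value was above each control value, replicate 3 by the least. Its log2 fold change was 0.36 (SE 0.131, 95% interval 0.08 to 0.64, adjusted p = 0.052). It passed the threshold with DESeq2 size factors in edgeR (adjusted p = 0.047), with library totals (0.012), with both other filters (0.045 and 0.029) and without GLCC1 siRNA replicate 3 (0.024). It did not pass with the DESeq2 test (adjusted p = 0.066), with the replicate block (0.082) or without any other single library (0.056 to 0.17).

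CCAT1 measured 17.2, 16.0 and 17.5 CPM in control libraries and 20.2, 18.8 and 19.3 CPM with GLCC1 siRNA. The groups were close but did not overlap. Its log2 fold change was 0.21 (SE 0.104, 95% interval -0.02 to 0.43, adjusted p = 0.15). It passed under library totals alone (adjusted p = 0.027) and without GLCC1 siRNA replicate 2 (adjusted p = 0.037), and under no other alternative. MYC, which lies 51.6 kb from PVT1 and encodes the transcription factor c-Myc, went the other way and fell from 149 ± 7.76 to 106 ± 15.4 CPM (log2 fold change -0.48, adjusted p = 0.0030).

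Of 12 genes listed as neighbours of the 10 RNAs, 11 were tested, 1 rose, 4 fell and 6 did not pass the test. The share called was thus 45.5%, close to the 45.1% of all tested genes at 1 CPM or more. IGF2, 125 kb from H19, fell from 28.2 ± 3.87 to 19.998 ± 4.30 CPM (log2 fold change -0.49, adjusted p = 0.024). That call was lost under library totals (adjusted p = 0.071) and without control replicate 2 (adjusted p = 0.14). FRMD8, 9.25 kb from NEAT1, fell by 0.69 on the log2 scale. SLC3A2, an amino acid transporter subunit whose start lies 0.051 kb from that of SNHG1 on the other strand, had a log2 fold change of -0.06 (adjusted p = 0.68). MORC2, 0.471 kb from TUG1 on the other strand, had a log2 fold change of 0.11 (adjusted p = 0.32). PRR14L, which rose by 0.62, lies 697 kb from TUG1 and is not adjacent to it. Under library totals alone 3 of the 11 rose. GPC5, beside MIR17HG, was almost unread and was not tested.

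Levels were compared between the RNAs per kilobase, in control libraries, because a longer RNA gives more read pairs. Over the canonical transcript, H19 stood highest with 13061 CPM per kb (range 12080 to 14200.4). GAS5 followed with 300.5 CPM per kb and SNHG1 with 164 CPM per kb. The ranges of MALAT1 (29.8 CPM per kb), TUG1 (27.6 CPM per kb) and NEAT1 (25.8 CPM per kb) ran into each other in that order. DANCR at 7.82 and MIR17HG at 6.85 CPM per kb overlapped too, and PVT1 stood lowest at 4.47 CPM per kb. With the union of all annotated exons as length, H19 remained first, whereas GAS5 and SNHG1 overlapped and MIR17HG and PVT1 shared the lowest places. NEAT1 (25.8 CPM per kb) then stood above TUG1 (20.3 CPM per kb), and the ranges of MALAT1, NEAT1 and TUG1 no longer overlapped. CCAT1 was not placed, as its length was not taken from the annotation used here.

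Other long noncoding RNAs that are often studied in cancer served as the nearest group for comparison. Of 57 listed, 51 were in the tables and 39 were tested. Among these, 14 rose, 3 fell and 22 did not pass the test, so that 43.6% were called. The share called was 31.6% over all tested genes. It was 45.1% over those with a mean of at least 1 CPM (20.3% higher, 24.8% lower). The median log2 fold change of the 39 was 0.43, beside -0.02 for the 10 RNAs and 0.03 for all tested genes. LINC00511 rose most among those at 1 CPM or more, from 20.8 ± 1.20 to 51.2 ± 7.20 CPM (log2 fold change 1.30, adjusted p = 2.4e-06). HOXA11-AS and DLX6-AS1, both from homeobox gene loci, rose by 1.26 and 1.19 on the log2 scale, although reads of an antisense RNA and of its partner could not be told apart without the strand. UCA1 fell from 2.84 ± 0.784 to 1.03 ± 0.0723 CPM (log2 fold change -1.47, adjusted p = 0.0010). MIR22HG, the host of miR-22, fell by 0.84 and HOTAIRM1, from the HOXA cluster, fell by 0.63. No test of the 10 against this list was made.

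**Figure D4:**
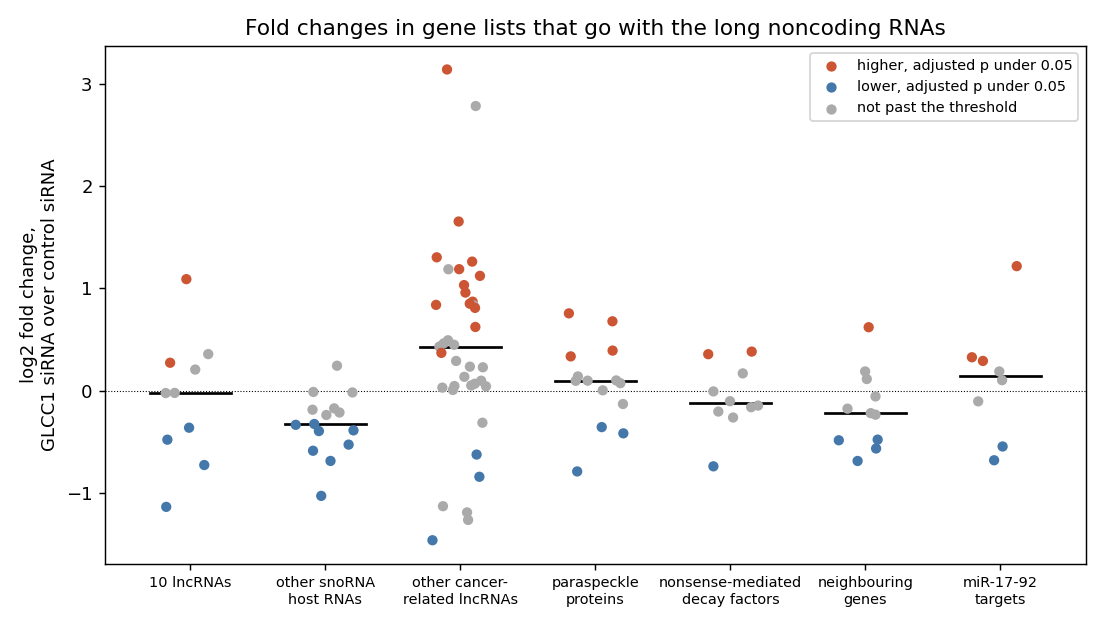
Log2 fold change, GLCC1 siRNA over control siRNA, of each tested gene of each list, with the list's median as a bar and orange (higher) or blue (lower) points for an adjusted p under 0.05. The 15 other snoRNA hosts lie mostly below 0 (median -0.33), the 39 other cancer-related noncoding RNAs mostly above it (median 0.43), and the 10 RNAs on both sides (median -0.02).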

How the data were processed

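RNA sequencing of 6 libraries was used, 3 for each siRNA, grouped by their titles. What the authors deposited is 1 table of raw counts for each library, with whole numbers of read pairs by gene symbol and no normalization. Per the labels and the paper's methods, total RNA went into Illumina TruSeq RNA libraries, paired-end reads were mapped to hg19 with TopHat2 2.0.11 on an Ensembl transcript index, and HTSeq counted them in union mode. Its version and strand setting were not given in the sources used here. Read pairs that meet exons of several genes are left uncounted in that mode. They were 8.19% to 8.89% per library of the pairs on a single gene, on no gene or on several genes. These and the pairs on no gene were kept out of library sizes and tests.

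A gene was kept if either condition held at least 5 counts in sum, which left 23074. Counts were compared in edgeR 4.0.16 under R 4.3.3 (TMM factors, robust quasi-likelihood test, condition as the only term), with Benjamini-Hochberg adjustment over all tested genes and a threshold of 0.05. CPM are counts per 1000000 of the TMM-scaled library size. Intervals of 95% come from the fold change and its standard error. No library was a copy of another. The procedure was tested on simulated data. Between 11948790 and 19042516 read pairs per library set the precision, with standard errors on the log2 scale of 0.16 for MIR17HG and 0.075 for GAS5.

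The 10 RNAs and all lists were chosen with earlier results of these data known. Members were all named. From every other list, genes with an adjusted p under 0.05, at least 1 CPM and no overlap between groups were named, up to 3 with the largest rise and 3 with the largest fall, as were MYC, IGF2 and snoRNA or microRNA genes with at least 10 counts in a library. The genes SFPQ, NONO, PSPC1, RN7SK, SLC3A2, MORC2, GPC5, HOTAIR, HOTTIP, HOXA-AS2, KCNQ1OT1 and the markers were named after their values were seen. ZFAS1 and SNHG12 were named for their start sequences, outside this rule. A few genes of these lists are counted but not reported by name here. Alternatives were DESeq2 1.42.0, its size factors in edgeR, library totals alone, filters of 1 count in any library and 10 counts in every library, a replicate block, and each library left out in turn. Positions come from GENCODE 44 on hg19, which held 9 of the 10 symbols, all but CCAT1. This annotation is not the one used for counting. The 8 microRNA sequences come from RefSeq.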

Additional observations from a re-analysis of the deposited data

How the results depend on the processing

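The calls of H19, MIR17HG, GAS5, SNHG1 and DANCR kept their direction and their side of the threshold under all 12 alternatives. Of 120 alternative fold changes of the 10 RNAs, 99 kept both, 4 were no longer past the threshold (all TUG1), 8 newly passed it and 9 changed sign. The sign changes were those of MALAT1 and NEAT1, whose values lie near 0. Under library totals MALAT1 was 0.099 and NEAT1 0.099, and with 10 counts in every library they were 0.015 and 0.016. With a library left out, MALAT1 was between -0.22 and 0.11, with the positive values 0.0089, 0.031 and 0.11, and NEAT1 was between -0.062 and 0.049, with the positive values 0.0045 and 0.049.

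With library totals, 4 of the 10 RNAs were called higher in place of 2, snoRNA hosts gave 1 higher and 4 lower, and neighbours gave 3 higher. DESeq2 called 0 of the small RNA genes lower (1 at an unadjusted p under 0.05). With a library left out, the counts of calls ranged from 1 to 3 higher and 4 to 5 lower for the 10 RNAs, from 4 to 9 lower for snoRNA hosts, from 0 to 1 lower for small RNA genes, and from 1 to 3 higher and 1 to 3 lower for decay factors. Over all genes, 2381 to 4844 were higher and 2833 to 5076 lower. Both largest counts came without GLCC1 siRNA replicate 2, and leaving out any other library gave fewer calls than the main fit. That library stood apart from its group. Its counts differed from those of replicates 1 and 3 with a chi-square per degree of freedom of 19.8 and 20.6. The other same-group pairs gave 1.98 to 4.41. The cause of the shifts in the counts of calls was not tested.

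Same-numbered libraries deviated from their group means with correlations of -0.16, -0.29 and -0.01, so no pairing by number was seen. Differently numbered libraries gave -0.24 to 0.25. With 3 libraries per group these correlations depend on each other, so they cannot exclude a pairing. With the replicate block, 1 of the 10 RNAs was called higher, as TUG1 had an adjusted p of 0.069, and 3009 genes were called higher and 3513 lower in all. At this depth, MIR17HG rests on 73 to 204 read pairs per library.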

Other observations

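Among the other noncoding RNAs listed, those of the HOX clusters and of the imprinted domain next to that of H19 were looked at after their values were seen. The list holds 5 RNAs of the HOX clusters, of which 3 rose (HOTAIR, HOTTIP and HOXA11-AS), HOTAIRM1 fell and HOXA-AS2 did not pass the test (log2 fold change 0.49, adjusted p = 0.057). Of all tested genes, 31.6% were called (14.9% higher, 16.7% lower). Of those at 1 CPM or more, 45.1% were called (20.3% higher, 24.8% lower). With so few RNAs, picked after their values were seen, nothing is concluded about the clusters. HOTAIR, from the HOXC cluster, rose from 3.66 ± 0.557 to 7.05 ± 1.33 CPM (n = 3 each, log2 fold change 0.96, adjusted p = 0.0012 by edgeR's quasi-likelihood test), and the groups did not overlap. HOTTIP, at the end of the HOXA cluster, was near the detection limit with 0.390 ± 0.222 and 1.28 ± 0.115 CPM (log2 fold change 1.66, adjusted p = 0.0061). KCNQ1OT1, the antisense RNA of the imprinted domain next to that of H19 and IGF2, is transcribed from the paternal copy and rose from 31.1 ± 2.04 to 55.6 ± 5.22 CPM (log2 fold change 0.84, adjusted p = 3.2e-05), whereas H19 and IGF2 fell. It overlaps KCNQ1 on the other strand, and the strand setting of the counting was not given.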
